A study of Mus musculus with 12 samples.

Results

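Ribosome biogenesis genes encode the machinery that transcribes ribosomal RNA and turns it into ribosomal subunits. RNA polymerase I (Pol I) copies the ribosomal DNA in the nucleolus into one long precursor, which small nucleolar ribonucleoproteins (snoRNPs) modify and which a long series of assembly factors folds, cuts and exports. The box C/D snoRNPs guide methylation of the ribose and the box H/ACA snoRNPs guide conversion of uridine to pseudouridine. In myeloid progenitors the pathway is known for following growth and division, and the transcription factor Myc is known to raise many of its genes. The 42 genes described here were chosen by name: 6 of Pol I transcription, 4 of the box C/D snoRNP and U3, 4 of the box H/ACA snoRNP, 5 abundant nucleolar proteins, 12 factors of the small subunit and 11 of the large subunit. They were found among 17905 genes tested, were represented by 62 probes, and were well above background on all 12 arrays.

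The study measured RNA of GMP (granulocyte-monocyte progenitors, which give rise to neutrophils and monocytes in the marrow) on one-colour Agilent arrays to find genes that depend on the transcription factor Runx1. Cells of the ko group came from Runx1fl/fl-Tg(vav-Cre) mice, titled Runx1Δ/Δ, in which a vav-driven Cre, active in blood cells, deletes the floxed gene (n = 4), and cells of the wt group from Runx1+/+-Tg(vav-Cre) mice, which carry the same Cre (n = 4). Cells of the RUNX1-ERt2 group (n = 2) and of the ERt2 group (n = 2) were Runx1fl/fl-Tg(vav-Cre) cells too: donor marrow taken 3 days after 150 mg/kg 5-fluorouracil was infected with MIG retrovirus that carries GFP with RUNX1-ERt2, a RUNX1 fused to a tamoxifen-responsive receptor domain, or with ERt2 alone. The infected marrow was transplanted into lethally irradiated mice, and GFP+ GMP were sorted after 6 weeks, 24 h after the last of 3 daily tamoxifen injections of 49.5 μg/g. The protocol says that only part of the mice received tamoxifen, while the descriptions of all 4 transplant samples name it. Ages are not given, whether a sample pools mice is not given either, and nothing says whether the samples of a group came from separate mice; p-values thus cover the spread between samples, which may be technical. The ko and wt samples 1 and 2 shared slide 1 and samples 3 and 4 shared slide 2, whereas ERt2 filled slide 3 and RUNX1-ERt2 slide 4, so that slide and group cannot be told apart among the transplanted cells.

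The share of the 39429 probes that exceeded background clearly was 53.5% to 63.2% across arrays, and no spot was saturated. The transplant arrays were dimmer, with median processed signals of 40.2 to 54.4 against 61.4 to 92.5 on the ko and wt arrays. The number of arrays limits the precision of every value. The 10 listed GMP marker genes were well above background on all 12 arrays. The Runx1 probe read higher in ko cells, by 1.69 ± 0.17 on the log2 scale (SE, adjusted p = 0.000250), and lower in RUNX1-ERt2 than in ERt2 cells, by -1.09 ± 0.24 (SE, adjusted p = 0.0123). Where the probe lies relative to the deleted segment is not given, so it does not check the genotype labels.

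Promoters of genes with large ko minus wt differences are printed here because Runx1 acts by binding DNA, at sites that read TGTGGT in their core. RefSeq promoter windows, 250 bases before to 50 after the start, were matched for 37 of the 42 genes, in 44 windows, by symbol (build GRCm38.p6). Rrp12, whose difference was the second largest, is not among them. The 250 bases before the start, 5′ to 3′ along the gene, follow for 4 genes, with capitals on CGGAAG or its reverse complement CTTCCG, the core of sites bound by Ets factors.
Nop10, chr2:112261676-112261925, plus strand: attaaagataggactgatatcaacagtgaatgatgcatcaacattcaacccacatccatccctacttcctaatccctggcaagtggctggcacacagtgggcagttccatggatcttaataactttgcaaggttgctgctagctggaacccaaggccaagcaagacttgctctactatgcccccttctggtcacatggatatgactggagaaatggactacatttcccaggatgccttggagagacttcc
Nhp2, chr11:51619523-51619772, plus strand: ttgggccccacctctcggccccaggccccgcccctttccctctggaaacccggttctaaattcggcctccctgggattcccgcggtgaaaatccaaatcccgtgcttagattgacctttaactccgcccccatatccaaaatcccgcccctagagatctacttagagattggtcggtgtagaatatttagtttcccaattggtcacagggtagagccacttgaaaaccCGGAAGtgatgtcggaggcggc
Nolc1, chr19:46075597-46075846, plus strand: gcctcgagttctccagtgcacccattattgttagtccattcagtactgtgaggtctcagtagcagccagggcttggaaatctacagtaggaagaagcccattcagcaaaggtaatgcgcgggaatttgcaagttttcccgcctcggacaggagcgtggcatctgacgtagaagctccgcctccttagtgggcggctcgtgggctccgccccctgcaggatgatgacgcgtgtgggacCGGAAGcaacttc
Ddx21, chr10:62602299-62602548, minus strand: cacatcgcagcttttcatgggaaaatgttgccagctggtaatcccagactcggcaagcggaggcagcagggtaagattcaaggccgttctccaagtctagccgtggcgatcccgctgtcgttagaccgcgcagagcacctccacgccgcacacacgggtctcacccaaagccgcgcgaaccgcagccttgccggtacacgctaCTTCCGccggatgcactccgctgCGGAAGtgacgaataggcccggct

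None of the 4 printed stretches holds TGTGGT, its reverse complement ACCACA, or CACGTG, the E-box that Myc is known to bind. The Ets core stands 22 bases before the start of Nhp2, 13 before that of Nolc1, and 47 and 24 before that of Ddx21. Over both strands of the whole windows, TGTGGT was found in 9.09% of the 44 member windows (Bysl, Heatr1, Nop56 and Pes1), against 16.8% of all 32851 windows. The E-box was found in 18.2% of the member windows (Ltv1, Mybbp1a, Nop2, Pes1, Rrn3, Tsr1, Utp20 and Wdr43), against 7.15% of all windows. The Ets core, a motif searched for after the printed promoters had been read, was found in 22 of the 44 member windows, 1 for each of 22 genes, against 16.9% of all windows. The letters of no motif contain those of another, and these are counts of letters in a window.

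The first comparison asks what loss of Runx1 does to these genes in GMP. Ribosome biogenesis genes were lower in ko than in wt cells: 17 of 42 fell past an adjusted p of 0.05 and 0 rose (limma, adjusted over all genes), where 13.8% of all genes tested fell and 11.5% rose. At an unadjusted p under 0.05, 30 of the 42 were lower and 0 higher. The share of all genes at that unadjusted p was not counted, here or in later comparisons, so such counts have no baseline. The differences were modest, between -0.71 for Nop10 and 0.02 for Bms1 on the log2 scale, with a median of -0.36 and quartiles of -0.45 and -0.22, beside a median of -0.05 over all genes. In all, 40 of the 42 differences were below 0, Bms1 and Noc3l being the exceptions, where 55.7% of all genes were below 0. On every ko array the level lay below that on every wt array for 17 genes, where 13.2% of all genes did so, and for 0 genes the reverse held, where 10.1% did. Levels are log2 processed signals minus the 75th percentile of the array, and a difference is ko minus wt of such levels. In sorted cells measured in bulk, fewer cells with a transcript and less of it per cell cannot be told apart. The size and the count depend on the background correction: with normexp the median of the 42 genes was -0.28, that of all genes -0.15, and 3 of the 42 fell past the threshold, where 5.88% of all genes did. The count depends on scaling too: with the array median in place of the 75th percentile 4 fell, where 7.8% of all genes did. The median was then -0.35, beside -0.03 over all genes, so the size hardly moved. At both settings the count is near the share of all genes.

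**Figure D1:**
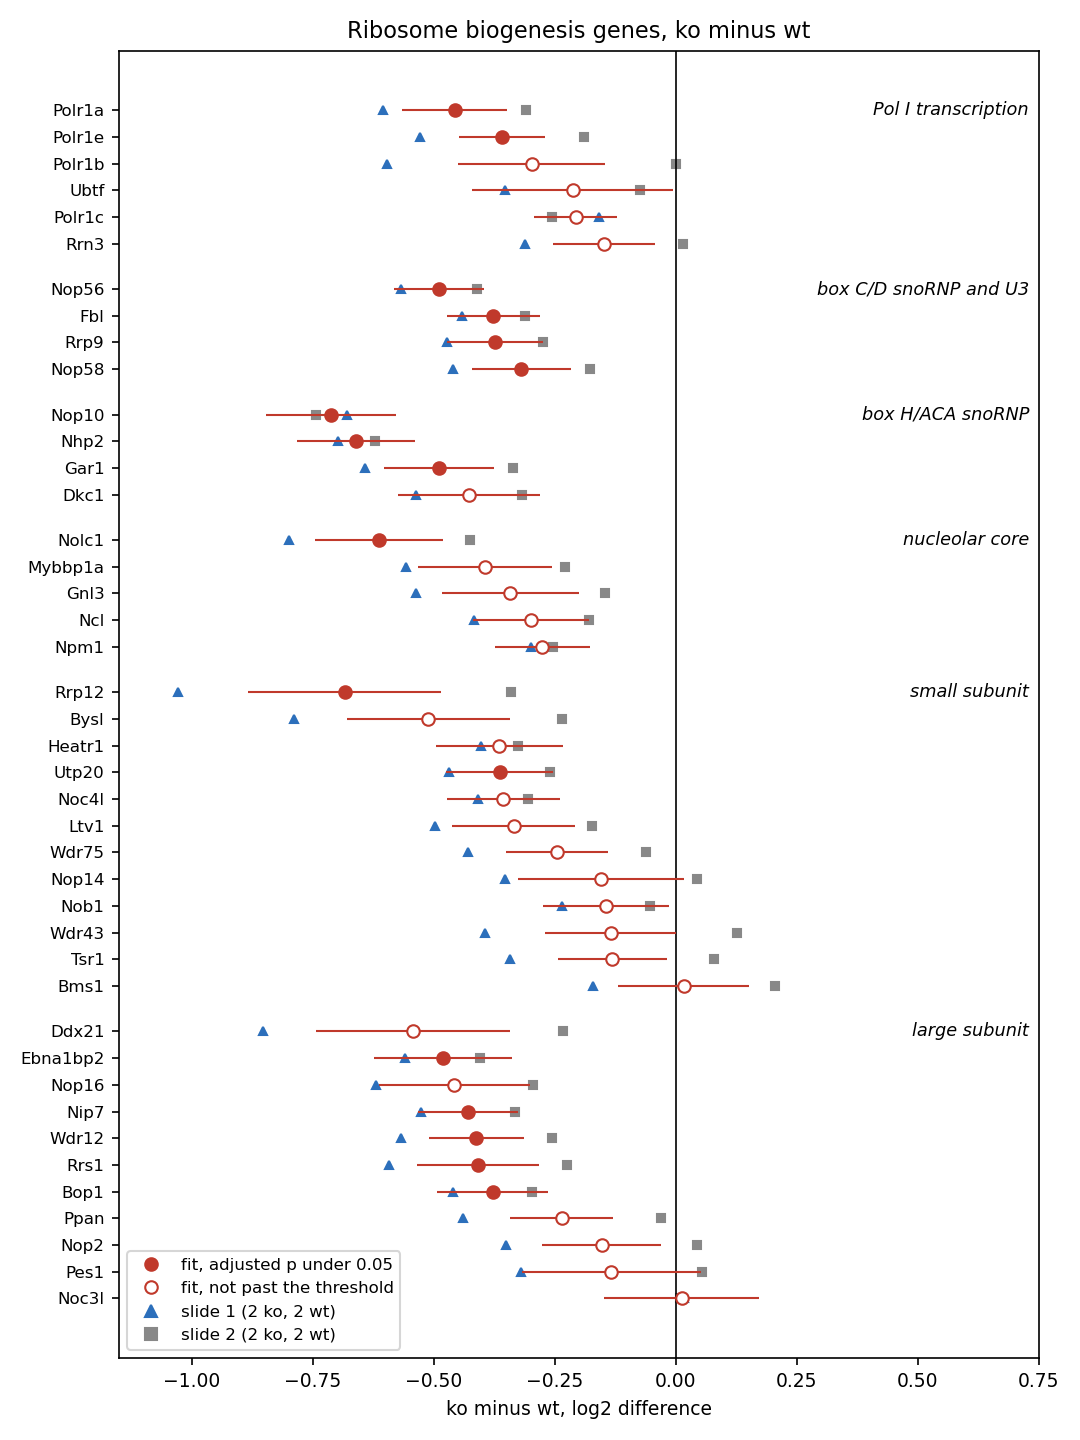
Difference in log2 level, ko minus wt, of the 42 genes by role (circles, with bars of 1 SE; filled where the adjusted p is under 0.05), with the difference on slide 1 (triangles) and on slide 2 (squares), each from 2 ko and 2 wt arrays. The circles run between -0.71 (Nop10) and 0.02 (Bms1), and the slide 1 triangles mostly lie further to the left than the slide 2 squares.

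The box H/ACA snoRNP genes had the lowest median difference of the 6 roles, -0.57, with 4 of 4 below 0 and 3 past the threshold. Nop10, a small core protein of this particle, had levels of 3.33, 3.55, 3.60 and 3.14 on the ko arrays 1 to 4, against 4.11, 4.12, 4.21 and 4.01 on the wt arrays. Nhp2, an RNA-binding core protein of the particle, had 4.74, 4.73, 4.97 and 4.90 in ko cells, against 5.42, 5.45, 5.61 and 5.50 in wt cells. For both genes every ko array lay below every wt array, and for Nhp2 the gap between the groups was wider than the spread within either. The differences were -0.71 ± 0.13 for Nop10 (SE, adjusted p = 0.00602) and -0.66 ± 0.12 for Nhp2 (SE, adjusted p = 0.00538), which puts the signal in ko cells at 61.1% and 63.3% of that in wt cells. Gar1, a further core protein of the particle, had 3.89, 4.07, 4.32 and 4.01 in ko cells, against 4.65, 4.59, 4.55 and 4.45 in wt cells, a difference of -0.49 ± 0.11 (SE, adjusted p = 0.0144). Its groups did not overlap either. Dkc1, the pseudouridine synthase itself, averaged 0.65 ± 0.21 in ko and 1.07 ± 0.21 in wt cells (SD, n = 4 each), and its difference of -0.43 ± 0.15 did not pass (SE, adjusted p = 0.0625). The same 4 proteins are also part of telomerase.

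The box C/D genes fell in 4 of 4 cases, with a median difference of -0.37. Nop56, a scaffold protein of the particle, had 4.52, 4.62, 4.85 and 4.77 in ko cells, against 5.15, 5.12, 5.16 and 5.28 in wt cells, a difference of -0.49 ± 0.09 (SE, adjusted p = 0.00618). Its other 2 probes passed as well, at -0.47 and -0.45, so that 3 of 3 probes of Nop56 fell. Fbl, the methyltransferase of the particle, had 3.62, 3.63, 3.91 and 3.84 in ko cells, against 4.04, 4.09, 4.09 and 4.28 in wt cells, a difference of -0.38 ± 0.10 (SE, adjusted p = 0.0212). Nop58, the partner of Nop56, and Rrp9, which binds the U3 RNA, also fell, with differences of -0.32 and -0.37. For all 4 genes the ko arrays lay below the wt arrays without overlap. Of these, Nop58 was no longer past the threshold with a replicate block (adjusted p = 0.0675).

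Among the 6 Pol I transcription genes 2 fell, both subunits of the enzyme, and the median difference was -0.26. Polr1a, the largest subunit, had 1.94, 1.88, 2.12 and 1.81 in ko cells, against 2.55, 2.48, 2.33 and 2.22 in wt cells, a difference of -0.46 ± 0.11 (SE, adjusted p = 0.0154). The second Polr1a probe did not follow, at 0.05 ± 0.14 (SE). Polr1e, a further subunit, differed by -0.36 ± 0.09 (SE, adjusted p = 0.0185), and its second probe passed too, at -0.40. Polr1b, the second largest subunit, had 1.19, 1.06, 1.85 and 1.42 in ko cells, against 1.69, 1.74, 1.74 and 1.53 in wt cells, with ko sample 3 above every wt sample, and its difference of -0.30 ± 0.15 did not pass (SE, adjusted p = 0.188). Polr1c, a subunit that Pol I shares with RNA polymerase III, differed by -0.21 without passing (adjusted p = 0.11), although its ko arrays, at 2.73, 2.76, 2.83 and 2.77, all lay below its wt arrays, at 2.89, 2.91, 3.08 and 3.03. The 2 factors that start transcription did not pass either. Rrn3, which brings the polymerase to the promoter, had 1.77, 1.67, 1.95 and 1.80 in ko cells, against 1.97, 2.09, 1.89 and 1.82 in wt cells (-0.15 ± 0.11, SE, adjusted p = 0.345). Ubtf, which binds along the ribosomal DNA, had 5.16, 5.21, 5.90 and 6.22 in ko cells, against 5.50, 5.58, 5.61 and 6.65 in wt cells (-0.21 ± 0.21, SE, adjusted p = 0.493). Samples 3 and 4 of ko and sample 4 of wt, all on slide 2, lay above the others.

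Of the nucleolar proteins, Nolc1, a chaperone of snoRNPs, was the only one of 5 past the threshold, and the median difference was -0.34. Nolc1 had 2.94, 3.08, 3.20 and 2.98 in ko cells, against 3.79, 3.83, 3.60 and 3.43 in wt cells, a difference of -0.61 ± 0.13 (SE, adjusted p = 0.0105). The abundant nucleolar proteins nucleophosmin (Npm1) and nucleolin (Ncl) did not pass. Npm1 had 6.46, 6.60, 6.58 and 6.50 in ko cells, against 6.84, 6.82, 6.83 and 6.75 in wt cells (-0.28 ± 0.10, SE, adjusted p = 0.0701), and Ncl had 5.22, 5.18, 5.42 and 5.20 in ko cells, against 5.65, 5.59, 5.61 and 5.37 in wt cells (-0.30 ± 0.12, SE, adjusted p = 0.101). The Npm1 groups did not overlap, while ko sample 3 of Ncl lay above wt sample 4. Gnl3, also called nucleostemin, and Mybbp1a differed by -0.34 and -0.39 without passing.

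**Figure D2:**
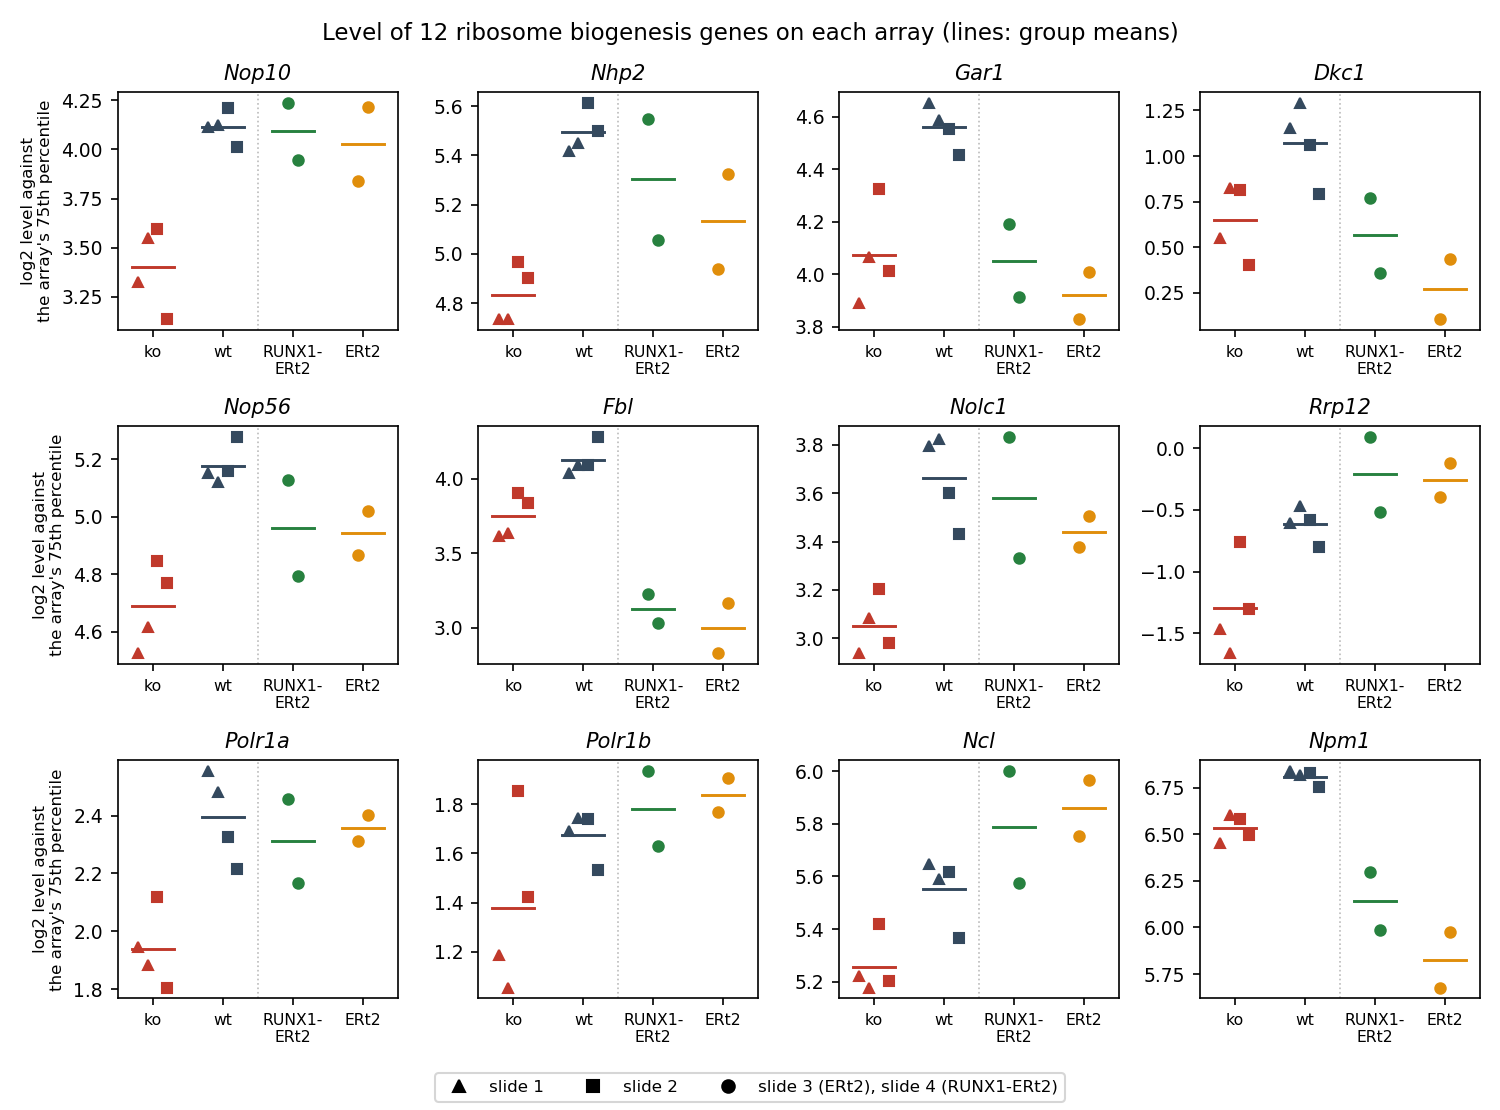
Level of 12 of the genes on each array (log2 processed signal minus the array's 75th percentile; triangles slide 1, squares slide 2, circles slides 3 and 4; lines are group means), with ko left of wt and RUNX1-ERt2 left of ERt2. For Nop10, Nhp2, Gar1, Nop56, Fbl, Nolc1, Polr1a and Npm1 all ko points lie below all wt points, and the RUNX1-ERt2 and ERt2 ranges overlap for each of the 12 genes other than Npm1.

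Among the 12 small subunit factors 2 fell, with a median of -0.29 and 11 below 0. Rrp12, which helps carry pre-ribosomal subunits out of the nucleus, had the largest difference, with -1.46, -1.66, -0.76 and -1.31 in ko cells, against -0.60, -0.47, -0.58 and -0.80 in wt cells (-0.68 ± 0.20, SE, adjusted p = 0.0347). Ko sample 3 lay within the wt range, and the 3 other ko samples below it. Utp20, a component of the small subunit processome, differed by -0.36 ± 0.11 (SE, adjusted p = 0.0395) and was lost with the replicate block (adjusted p = 0.0583). Bysl, Heatr1, Noc4l and Ltv1 had differences between -0.51 and -0.33 that did not pass, with adjusted p-values of 0.0521 for Noc4l to 0.0852 for Ltv1. With the replicate block Noc4l did pass (adjusted p = 0.0424). The remaining 6, Wdr75, Nop14, Nob1, Wdr43, Tsr1 and Bms1, lay between -0.25 and 0.02. Nob1 is the nuclease that makes the last cut of the small subunit RNA, and Bms1 is a GTPase of the processome.

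Of the 11 large subunit factors 5 fell, with a median of -0.41 and 10 below 0. Ebna1bp2 had 3.99, 3.97, 4.34 and 4.02 in ko cells, against 4.53, 4.55, 4.52 and 4.65 in wt cells (-0.48 ± 0.14, SE, adjusted p = 0.0374). Nip7 had 2.91, 2.88, 3.10 and 2.72 in ko cells, against 3.39, 3.45, 3.26 and 3.22 in wt cells (-0.43 ± 0.10, SE, adjusted p = 0.0166), while its second probe gave 0.06 ± 0.09 (SE). Both take part in the maturation of the large subunit RNA, and neither overlapped between the groups on the probe used. Bop1 and Wdr12 form, with Pes1, a complex needed for the same step. Wdr12 had 2.96, 2.90, 3.10 and 2.94 in ko cells, against 3.54, 3.46, 3.33 and 3.21 in wt cells (-0.41 ± 0.10, SE, adjusted p = 0.016). Bop1 had 2.25, 2.37, 2.62 and 2.45 in ko cells, against 2.76, 2.78, 2.98 and 2.68 in wt cells (-0.38 ± 0.12, SE, adjusted p = 0.0404). Pes1 differed by -0.13 ± 0.19 (SE, adjusted p = 0.642), so that 2 of the 3 members of the complex passed. Rrs1, which helps build a small RNA particle into the large subunit, had 1.70, 1.62, 1.70 and 1.55 in ko cells, against 2.14, 2.36, 2.00 and 1.70 in wt cells (-0.41 ± 0.13, SE, adjusted p = 0.0429), with wt sample 4 level with the highest ko samples. The helicase Ddx21 had a larger difference, -0.54 ± 0.20, that did not pass (SE, adjusted p = 0.0786). Nop16, Ppan and the methyltransferase Nop2 lay at -0.46, -0.24 and -0.15, and Noc3l at 0.01, none past the threshold. Ebna1bp2 and Rrs1 were lost with the replicate block (adjusted p = 0.0599 and 0.0529), while Nop16 passed with it (adjusted p = 0.0321).

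The median difference was further below 0 on slide 1 than on slide 2. On slide 1, with 2 ko and 2 wt arrays, the median difference of the 42 genes was -0.47 and 41 were below 0, beside a median of -0.06 over all genes. On slide 2 the median was -0.23 and 33 were below 0, beside -0.03 over all genes. Tested alone (limma), slide 1 gave 26 genes past the threshold, where 13.1% of all genes fell. Slide 2 gave 0, with 2 at an unadjusted p under 0.05, where 1.12% of all genes fell, so that 0 of 42 is near the share of all genes. For 33 genes the difference was below 0 on both slides, where 42.2% of all genes were. Across the 42 genes the slide 1 and slide 2 differences, which share no arrays but share probes, had a Pearson r of 0.59 and a Spearman rho of 0.64. Nop10 was nearly equal, with -0.68 on slide 1 and -0.74 on slide 2, as was Nhp2, with -0.70 on slide 1 and -0.62 on slide 2. Rrp12 had -1.03 on slide 1 and -0.34 on slide 2, and Ddx21 had -0.85 on slide 1 and -0.23 on slide 2. Bms1 and Wdr43 were furthest above 0 on slide 2, at 0.20 and 0.13, having been at -0.17 and -0.39 on slide 1. The slide 2 minus slide 1 difference of ko minus wt was above 0 for 39 genes, with a median of 0.31, but passed the threshold for 0 of them (4 at an unadjusted p under 0.05), where 0.00559% of all genes, 1 gene, did so upward.

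**Figure D3:**
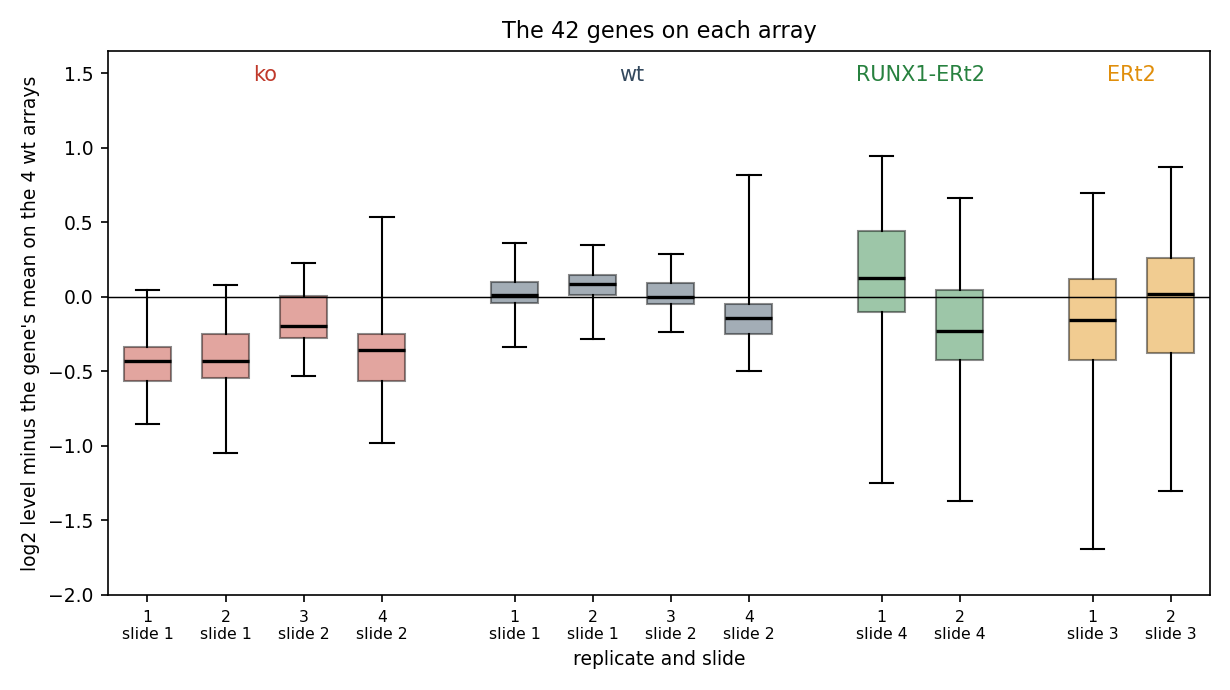
The 42 genes on each array, as log2 level minus the gene's mean over the 4 wt arrays (line: median over genes; box: quartiles; whiskers: lowest and highest gene), with ko left of wt and RUNX1-ERt2 left of ERt2. The medians of the ko arrays lie between -0.43 and -0.20 and those of the wt arrays between -0.15 and 0.08.

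On single arrays, the median over the 42 genes of the level minus the wt mean was -0.43, -0.43, -0.20 and -0.36 on ko arrays 1 to 4, against 0.01, 0.08, -0.00 and -0.15 on wt arrays 1 to 4. The ko and wt medians did not overlap, and slide 2 held both the highest ko array and the lowest wt array. Ko sample 3 was the highest of the ko arrays for 31 of the 42 genes, and wt sample 4 the lowest of the wt arrays for 30. The share of all genes for which this held was not counted. Leaving out ko sample 3 left 25 genes past the threshold, leaving out wt sample 1 left 4, wt sample 2 left 6, ko sample 1 or 2 left 6 each, and ko sample 4 left 7. The share of all genes that fell was 14.4% without ko sample 3, 8.47% without wt sample 1, 8.13% without wt sample 2, 8.36% and 9.1% without ko samples 1 and 2, and 8.08% without ko sample 4. The 4 genes left without wt sample 1 are thus near the share of all genes.

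Other gene lists moved between ko and wt as well, and their part in the result was not tested. Of 12 cell cycle genes 9 fell, with a median difference of -0.68, and their summed level, on a linear scale in units of the array's 75th percentile, was 82.7 to 127 in ko and 126 to 162 in wt cells. Of 7 monocyte and dendritic markers 7 fell, with sums of 5.73 to 23.0 in ko and 23.7 to 45.1 in wt cells. Of 8 megakaryocyte markers 4 rose, with sums of 38.5 to 58.6 in ko and 8.74 to 14.4 in wt cells, and of 7 stem cell markers 4 rose and 1 fell, with sums of 28.6 to 36.1 in ko and 11.2 to 15.2 in wt cells. Of 10 GMP markers 1 rose and 4 fell, with sums of 434 to 558 in ko and 617 to 866 in wt cells. Of 6 basophil and mast cell markers 4 fell and 1 rose, with a median difference of -2.09, although their sums were higher in ko cells, at 37.0 to 63.8 in ko and 24.6 to 28.6 in wt cells. Of 5 T and NK cell markers 2 fell, with a median difference of -0.07 and sums of 8.24 to 13.0 in ko and 19.9 to 34.4 in wt cells. The 8 late neutrophil markers had a median difference of -0.23 and sums that overlapped, at 20.6 to 267 in ko and 50.4 to 277 in wt cells. The cell cycle median was -0.48 on slide 1 and -0.85 on slide 2, and the late neutrophil median -1.23 on slide 1 and 0.65 on slide 2.

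Genes of the pathway beyond the 42 were counted as well, from a list of their names. Of 114 listed, 112 were tested: 37 fell and 2 rose, where 13.8% of all genes fell and 11.5% rose. Their median difference was -0.25, beside -0.05 over all genes. These genes were counted at the main setting only. Of 14 further Pol I genes 7 fell and 1 rose, with a median of -0.25, led by subunits that the nuclear RNA polymerases share: Polr2l at -0.74 ± 0.13 (SE, adjusted p = 0.00384), Polr2h at -0.61 ± 0.11 and Polr2f at -0.52 ± 0.10. Of 35 further small subunit factors 9 fell, among them the acetyltransferase Nat10 (-0.46 ± 0.14, SE), Pwp2 (-0.44 ± 0.11, SE) and Wdr46 (-0.44 ± 0.12, SE). Of 39 further large subunit factors 12 fell, with Rpf2 (-0.60 ± 0.11, SE), Sdad1 (-0.52 ± 0.12, SE) and Rrp15 (-0.48 ± 0.12, SE) in front. Among 9 further genes listed under snoRNPs 3 fell and 1 rose. Those that fell most were Snu13, a shared box C/D and splicing protein, at -0.57 ± 0.11 (SE), and Naf1, an assembly factor of the box H/ACA particle, at -0.47 ± 0.11 (SE). The listed gene that rose was Nop53, at 0.44 ± 0.11 (SE), which is not itself a snoRNP protein. Of 15 genes of the RNA exosome, the complex that trims and degrades RNA, 6 fell, with Exosc3 at -0.60 ± 0.11 (SE), Exosc8 at -0.56 ± 0.15 (SE) and Exosc6 at -0.48 ± 0.14 (SE). Of 9 tested genes of Myc, its partners and its antagonists, 3 rose and 1 fell, with a median of 0.15. Mxd1 and Mxd4, which antagonise Myc, rose by 0.96 ± 0.11 and 0.47 ± 0.09 (SE), while Mxd3 of the same family fell by 0.49 ± 0.15 (SE).

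The second comparison asks whether induced RUNX1 acts on the same genes in Runx1fl/fl-Tg(vav-Cre) cells. Few of these genes passed between RUNX1-ERt2 and ERt2 cells: 1 of 42 was higher and 0 lower (limma), where 10.2% of all genes were higher and 8.87% lower. At an unadjusted p under 0.05, 3 were higher and 0 lower, again without a count over all genes. The median difference, RUNX1-ERt2 minus ERt2, was 0.10, with quartiles of -0.05 and 0.19, beside 0.00 over all genes, and 30 of 42 were above 0. With the array median as the scale the median was 0.02 and 20 were below 0. Both RUNX1-ERt2 arrays lay above both ERt2 arrays for 10 genes and below them for 2, where 29.1% and 29.8% of all genes did so. The gene that passed was Polr1c, with 3.66 and 3.45 in RUNX1-ERt2 cells, against 2.93 and 3.21 in ERt2 cells, a difference of 0.48 ± 0.12 (SE, adjusted p = 0.0227). Leaving out RUNX1-ERt2 sample 1 or ERt2 sample 1 ended that call. So did normexp background correction, the array median, the series matrix values, no filter on dim probes, slide as a random block and a fit of the 4 arrays of these groups alone.

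The 17 genes that fell in ko cells did not pass here, and their median difference was 0.07, with 14 above 0. Nop10 had 4.24 and 3.95 in RUNX1-ERt2 cells, against 3.84 and 4.22 in ERt2 cells, a difference of 0.06 with a 95% interval of -0.37 to 0.49. Nhp2 had 5.55 and 5.06 in RUNX1-ERt2 cells, against 4.94 and 5.33 in ERt2 cells, a difference of 0.17 with an interval of -0.22 to 0.56. In both genes sample 1 of RUNX1-ERt2 was high and sample 2 lay within the ERt2 range. Nolc1 had 3.83 and 3.33 in RUNX1-ERt2 cells, against 3.38 and 3.51 in ERt2 cells (0.14, interval -0.28 to 0.56). Gar1 had 4.19 and 3.91 in RUNX1-ERt2 cells, against 3.83 and 4.01 in ERt2 cells (0.13, interval -0.23 to 0.50), and Rrp12 had 0.09 and -0.51 in RUNX1-ERt2 cells, against -0.39 and -0.12 in ERt2 cells (0.04, interval -0.59 to 0.68). None of these intervals excludes 0. Nop56 had 5.13 and 4.80 in RUNX1-ERt2 cells, against 4.87 and 5.02 in ERt2 cells, a difference of 0.02 with an interval of -0.28 to 0.31, but its probes did not move alike, since one of the other 2 passed at 0.50 ± 0.15 (SE, adjusted p = 0.0452). One of 4 other Npm1 probes passed as well, at 0.95 ± 0.21 (SE, adjusted p = 0.0136), where the probe used gave 0.31 ± 0.14 (SE, adjusted p = 0.157), from 6.30 and 5.99 in RUNX1-ERt2 cells and 5.68 and 5.98 in ERt2 cells. Npm1 has processed copies elsewhere in the genome, and the probes' specificity was not examined. Polr1a had 2.46 and 2.17 in RUNX1-ERt2 cells, against 2.31 and 2.40 in ERt2 cells (-0.04, interval -0.39 to 0.30). Its values overlapped, as did those of Polr1b, at 1.93 and 1.63 in RUNX1-ERt2 and 1.77 and 1.91 in ERt2 cells, and of Ncl, at 6.00 and 5.58 in RUNX1-ERt2 and 5.75 and 5.97 in ERt2 cells. Fbl had 3.23 and 3.03 in RUNX1-ERt2 cells, against 2.83 and 3.16 in ERt2 cells (0.13, interval -0.18 to 0.44). Rrn3 had 1.64 and 1.39 in RUNX1-ERt2 cells, against 1.22 and 1.46 in ERt2 cells (0.18, interval -0.16 to 0.52), and Ubtf had 4.59 and 4.47 in RUNX1-ERt2 cells, against 4.15 and 4.53 in ERt2 cells (0.19, interval -0.47 to 0.85). The Ubtf interval is wide and spans 0. The large subunit factors that fell in ko cells overlapped between the transplanted groups except Bop1. Ebna1bp2 had 5.12 and 4.53 in RUNX1-ERt2 cells, against 4.50 and 4.86 in ERt2 cells (0.15, interval -0.31 to 0.60). Nip7 had 3.58 and 3.38 in RUNX1-ERt2 cells, against 3.34 and 3.53 in ERt2 cells (0.05, interval -0.28 to 0.38). Wdr12, with Bop1 part of the same complex, had 3.53 and 3.28 in RUNX1-ERt2 cells, against 3.43 and 3.56 in ERt2 cells, a difference of -0.09. Rrs1 had 2.08 and 1.75 in RUNX1-ERt2 cells, against 1.76 and 1.96 in ERt2 cells, a difference of 0.06.

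Set against the ko minus wt change, 16 of the 17 intervals of RUNX1-ERt2 minus ERt2 hold 0, the exception being Nop58 (0.34, interval 0.01 to 0.67). Of the same 17, 8 hold a value equal and opposite to the ko minus wt difference, and 9 lie wholly below that value. That value was taken as fixed, without its own SE. The 17 were also picked for passing in ko minus wt, which favours large differences there. These counts thus cannot tell how far the ko minus wt change was reversed. Across the 42 genes the comparisons, which share no arrays, had a Pearson r of 0.08 and a Spearman rho of 0.09. The sum of the differences, which is 0 where induced RUNX1 moves a gene by as much as its loss does in the opposite direction, passed for 1 gene, below 0, where 8.75% of all genes passed below 0 and 9.42% above. That gene was Bop1, at -0.69 ± 0.20 (SE, adjusted p = 0.0426). Bop1 was lower in ko than in wt cells and had 3.46 and 3.07 in RUNX1-ERt2 cells, against 3.47 and 3.67 in ERt2 cells, a difference of -0.31 ± 0.16 that did not pass itself (SE, adjusted p = 0.232). The Bop1 call was lost with normexp, the array median, the series matrix values, no filter on dim probes, no slide term and slide as a random block (limma, adjusted p of 0.0635 to 0.135). It was also lost with any 1 array left out other than wt sample 4, ko sample 3 or RUNX1-ERt2 sample 1. With single ko or wt arrays left out, 0 to 4 genes passed in place of 1, where 6.55% to 9.44% of all genes passed below 0. Over the 42 genes the sum had a median of -0.29, beside -0.03 over all genes. It was below 0 for 33 genes, where 52.4% of all genes were. With normexp the median was -0.23, beside -0.16 over all genes.

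**Figure D4:**
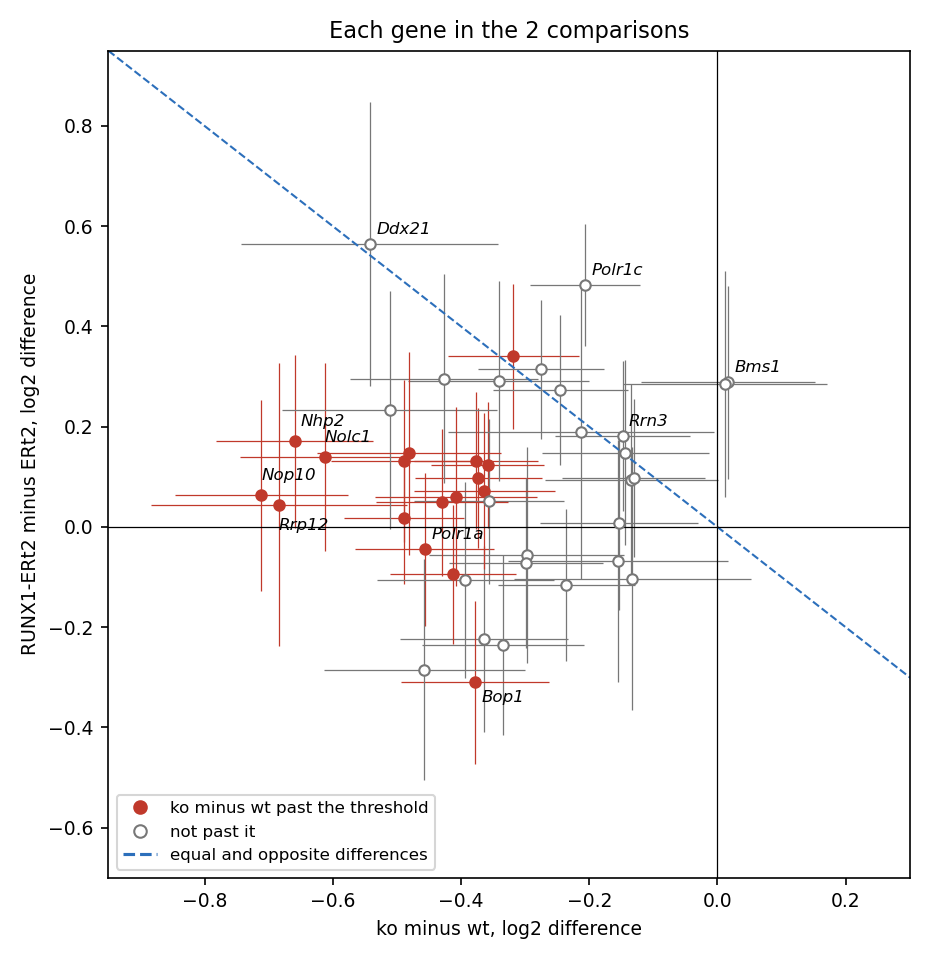
Each of the 42 genes as its ko minus wt difference (horizontal axis) and its RUNX1-ERt2 minus ERt2 difference (vertical axis), in log2 units with bars of 1 SE; filled points passed in ko minus wt, and the dashed line marks equal and opposite differences. Most filled points lie below the dashed line and near 0 on the vertical axis, with Bop1 lowest at -0.31.

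The transplanted samples of one group differed from each other across nearly the whole set. RUNX1-ERt2 sample 1 was above sample 2 for 41 of the 42 genes, with a median gap of 0.32, where it was above for 53.5% of all genes. ERt2 sample 2 was above sample 1 for 36 genes, with a median gap of 0.18, where it was above for 59.3% of all genes. As medians over the 42 genes against the wt mean, RUNX1-ERt2 samples stood at 0.13 and -0.23 and ERt2 samples at -0.16 and 0.02, so that the groups overlapped. Marker genes moved between these groups too, and their part was not tested. Of the 10 GMP markers 5 were lower and 0 higher, with a median difference of -0.65 and sums of 473 to 645 in RUNX1-ERt2 and 921 to 1038 in ERt2 cells. Of 5 T and NK cell markers 1 was higher and 1 lower, with a median difference of 1.00. Their sums nevertheless were lower in RUNX1-ERt2 cells, at 14.7 to 15.8 in RUNX1-ERt2 and 36.1 to 48.8 in ERt2 cells. Only 3 of these markers were well above background on all arrays. Of 8 late neutrophil markers 0 passed in either direction, with a median difference of -2.49. Their summed level was 120 to 138 in RUNX1-ERt2 and 539 to 665 in ERt2 cells. Of 4 tested B cell markers 1 was higher and 0 lower, and 1 was well above background on all arrays. The B cell sums were 8.05 to 22.6 in RUNX1-ERt2 and 0.28 to 0.30 in ERt2 cells. Of 12 cell cycle genes 1 was higher and 0 lower, with sums of 129 to 156 in RUNX1-ERt2 and 120 to 147 in ERt2 cells. Of the 112 further pathway genes 8 were higher and 1 lower, with a median of 0.02, where 10.2% of all genes were higher and 8.87% lower. The 8 are thus below the share of all genes. Among them were the methyltransferase Bud23 at 1.29 ± 0.16 (SE, adjusted p = 0.000738), Exosc1 at 1.02 ± 0.15 (SE) and Ddx55 at 0.95 ± 0.17 (SE). Utp6 at 0.68 ± 0.17 (SE), Dcaf13 at 0.63 ± 0.15 (SE) and Exosc3 at 0.53 ± 0.15 (SE) were others. The gene that was lower was Rsl24d1, at -0.48 ± 0.12 (SE). Bud23, Exosc1 and Exosc3 were also among the 37 further pathway genes that fell in ko cells, at -0.39, -0.35 and -0.60. The share of all genes that did both was not counted.

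ERt2 and ko cells share the Runx1fl/fl-Tg(vav-Cre) genotype and differ in 5-fluorouracil, infection, transplantation, tamoxifen and slide, which cannot be told apart. This comparison shares the ko arrays with the first. Of the 42 genes, 18 were higher and 5 lower in ERt2 than in ko cells, where 28.2% of all genes were higher and 24.3% lower, with a median of 0.34 beside 0.09 over all genes. Of 8 late neutrophil markers 6 were higher, with a median difference of 4.16 and sums of 539 to 665 in ERt2 and 20.6 to 267 in ko cells. Of 10 GMP markers 6 were higher, with a median of 1.11 and sums of 921 to 1038 in ERt2 and 434 to 558 in ko cells, and of 7 stem cell markers 5 were lower, with sums of 9.16 to 16.3 in ERt2 and 28.6 to 36.1 in ko cells. Of 7 erythroid markers 2 were higher and 0 lower, with sums of 77.9 to 137 in ERt2 and 18.2 to 53.8 in ko cells. Of 12 cell cycle genes 2 were higher and 4 lower, with a median difference of 0.14. Their sums were 120 to 147 in ERt2 and 82.7 to 127 in ko cells. Of 8 megakaryocyte markers 0 were higher and 4 lower, with sums of 11.6 to 27.9 in ERt2 and 38.5 to 58.6 in ko cells. The part of these lists in the result was not tested. The large subunit factors Nop16 (1.26) and Bop1 (1.22) and the export factor Rrp12 (1.14) had the largest increases. Bop1 had 3.47 and 3.67 in ERt2 cells, against 2.25, 2.37, 2.62 and 2.45 in ko cells, with no overlap. The 5 lower genes were Ubtf (-0.92), Npm1 (-0.71), Nop58 (-0.71), Fbl (-0.66) and Rrn3 (-0.47). Fbl had 2.83 and 3.16 in ERt2 cells, against 3.62, 3.63, 3.91 and 3.84 in ko cells, again with no overlap. Npm1 had 5.68 and 5.98 in ERt2 cells, against 6.46, 6.60, 6.58 and 6.50 in ko cells. Ncl was higher on the probe used (0.60) and lower in the mean of its 2 probes (-0.64), so its direction depends on the probe. With the authors' series matrix the median of all genes was 0.28 and the split 21 higher and 2 lower, where 37.2% and 20.0% of all genes were. Leaving out ERt2 sample 2 left 6 higher, ko sample 2 left 10 and ko sample 1 left 11, and leaving out ERt2 sample 1 left 3 lower. The share of all genes that was higher was 19.5% without ERt2 sample 2, 23.2% without ko sample 2 and 23.5% without ko sample 1. Without ERt2 sample 1, 20.9% of all genes were lower. The 10 and 11 genes are thus near the share of all genes, and the 6 lie below it.

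RUNX1-ERt2 and wt cells differ in the same handling and in the source of RUNX1, and this comparison shares the wt arrays with the first. Of the 42 genes, 5 were higher and 8 lower in RUNX1-ERt2 cells, where 21.5% of all genes were higher and 22.8% lower, with a median of -0.06 beside 0.02 over all genes. The split depended on the scale, at 6 higher and 4 lower with normexp, 5 and 4 with the array median, and 5 and 2 with the series matrix, and the median was 0.03, 0.02 and 0.09 in those. Of all genes, 12.3% were higher and 13.6% lower with normexp, and 22.2% and 18.3% with the array median. With the series matrix these shares were 24.6% and 17.1%. Of 12 cell cycle genes 5 were lower, with sums of 129 to 156 in RUNX1-ERt2 and 126 to 162 in wt cells, and of 7 monocyte and dendritic markers 4 were lower and 1 higher, with sums of 21.7 to 22.6 in RUNX1-ERt2 and 23.7 to 45.1 in wt cells. The late neutrophil sums were 120 to 138 in RUNX1-ERt2 and 50.4 to 277 in wt cells. Of 7 erythroid markers 3 were higher and 0 lower, with a median difference of 1.89. The erythroid sums were 88.6 to 101 in RUNX1-ERt2 and 16.8 to 33.3 in wt cells. The part of these lists was not tested. The higher genes were Nob1 (0.80), Polr1c (0.63), Noc4l (0.58), Rrp9 (0.54) and Bop1 (0.53). The lower ones were Ubtf (-0.94), Fbl (-0.91), Nop58 (-0.69), Npm1 (-0.68), Dkc1 (-0.60), Utp20 (-0.51), Gar1 (-0.49) and Rrn3 (-0.43). Polr1c had 3.66 and 3.45 in RUNX1-ERt2 cells, against 2.89, 2.91, 3.08 and 3.03 in wt cells, and Fbl had 3.23 and 3.03 in RUNX1-ERt2 cells, against 4.04, 4.09, 4.09 and 4.28 in wt cells. Leaving out RUNX1-ERt2 sample 1 left 2 higher, leaving out RUNX1-ERt2 sample 2 left 8 higher and 3 lower, and leaving out wt sample 1 or 2 left 3 lower each. Of all genes, 14.5% were higher without RUNX1-ERt2 sample 1, and 15.3% were higher and 17.5% lower without RUNX1-ERt2 sample 2. Without wt sample 1 or 2, 18.8% were lower each. Nop10 (-0.04, adjusted p = 0.861) and Nhp2 (-0.11, adjusted p = 0.603), the genes with the largest decreases among the box H/ACA genes in ko cells, did not pass.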

How the data were processed

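The deposited intensities come from Agilent Feature Extraction, which subtracted background and removed spatial trends on each array separately, per the file headers. The submitters' processing notes name version 9.1, and the headers another. The series matrix, deposited by the authors, holds a ratio of processed signal to array median, found by comparison with the scanner files; the medians of its columns are 0.91 to 0.94. Its ko and wt columns fit the scanner file of a different sample in their group, so it served as an alternative only. Which of both numberings is right cannot be told from the files: sample numbers here follow the scanner files, and each slide is that of the file's own header. RNA had been labelled with Cy3, per the labels' protocols.

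Control spots and spots marked as outliers (129 to 207 per array) were dropped, a probe's spots were averaged, and log2 processed signal was taken minus the array's 75th percentile. Testing required a probe to be well above background throughout 1 group or more, and the probe with the highest mean stood for its gene. Probes were named through RefSeq tables (GRCm38.p6); the files' own coordinates are mm9. The 12 arrays entered 1 model, with a mean per group and a term for slide 2, in limma 3.58.1 (lmFit and eBayes, R 4.3.3), with 7 residual and 2.11 prior degrees of freedom, Benjamini-Hochberg adjustment over all genes and a threshold of 0.05. The fit was tested on simulated data. The members, the gene lists and the rule for naming genes (those past the threshold by size of change, plus 8 set by name) were chosen with earlier results of these data known. Same-numbered ko and wt arrays deviated together (correlations of 0.37, 0.35, 0.18 and 0.67), so the replicate number was also fitted as a block; this pairing comes from the data and follows the slides in part, since within slides the correlations were -0.03 on slide 1 and 0.43 on slide 2.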

Additional observations from a re-analysis of the deposited data

Results flagged for a closer look

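Single arrays stood apart from the other 3 of their group in 7 of 84 groups of 4 arrays examined, and chance gives about 1 in 20. On wt sample 4, Ubtf read 6.65, above the other wt arrays, Nop14 read -0.16, below them, and Ltv1 read 2.90, below them. On ko sample 3, Mybbp1a read 4.90, Nop16 read 1.84 and Ebna1bp2 read 4.34, each above the other ko arrays. On ko sample 4, Heatr1 read 3.16, below the other ko arrays. All 7 were slide 2 arrays. Of these genes Ebna1bp2 is the one past the threshold in ko minus wt.

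Bop1 differed between the comparisons by the test of the difference: RUNX1-ERt2 minus ERt2 set against wt minus ko gave -0.69 (adjusted p = 0.0426), from -0.31 in the transplanted cells and -0.38 in ko minus wt. That call was lost under 6 processing alternatives (limma, adjusted p of 0.0635 to 0.135) and with 9 of the 12 arrays left out one at a time.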

How the results depend on the processing

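In ko minus wt, 0 members were higher under any setting run, and the median stayed below 0, at -0.42 to -0.32 with single arrays left out, -0.47 on slide 1 alone and -0.23 on slide 2 alone. The 17 lower calls (13.8% of all genes were lower) became 3 with normexp (5.88%), 4 with the array median (7.8%), 4 with the series matrix (7.42%), 8 with no filter on dim probes (6.04%), 26 on slide 1 alone (13.1%), 0 on slide 2 alone (1.12%) and 4 to 25 with single arrays left out (8.08% to 14.4%). With normexp, the array median and the series matrix the count is near the share of all genes; 4 of the 17 were kept with each ko and wt array left out. The replicate block gave 15 (14.1% of all genes), with 13 of the 17 kept, and the random slide block gave 19 (13.2%). Single probes ran the other way for Polr1a (0.052) and Nip7 (0.0645).

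For RUNX1-ERt2 minus ERt2 the median was -0.09 to 0.22 with single arrays left out. The 1 higher call (10.2% of all genes were higher) became 0 with normexp (4.05%), the array median (7.58%), the series matrix (7.43%) and no filter (4.46%). It also became 0 with the random slide block (4.6%) and the transplant arrays alone (4.95%), and 2 with quantile normalization (10.4%). Against wt minus ko, the 1 lower call (8.75% of all genes were lower) became 0 with normexp (3.56%), the array median (6.58%) and the series matrix (6.54%). It also became 0 with no filter (3.68%), no slide term (6.0%) and the random slide block (3.89%). The replicate block gave 2 (9.6%), and single ko or wt arrays left out gave 0 to 4 (6.55% to 9.44%). Quantile normalization gave 1 higher, where 10.1% of all genes were higher. Among the transplanted arrays same-numbered samples deviated in opposite directions, and with their numbers crossed, a fit added after seeing the data, the counts were 1 higher and 0 lower, and 4 lower against wt minus ko. Of all genes, 12.3% were higher and 11.1% lower with the numbers crossed, and 11.8% were lower against wt minus ko. The counts in these comparisons are near or below the share of all genes.

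In ERt2 minus ko the 18 higher calls became 6 to 19 with single arrays left out (19.5% to 28.3% of all genes). The 5 lower calls became 2 with the series matrix (20.0%) and 3 to 5 with single arrays left out (19.6% to 24.5%). In RUNX1-ERt2 minus wt the 5 higher calls became 8 with quantile normalization (21.9% of all genes) and 2 to 8 with single arrays left out (14.5% to 23.0%). The 8 lower calls became 4 with normexp (13.6%), the array median (18.3%) and the random slide block (15.9%). They became 2 with the series matrix (17.1%), 5 with no filter (12.2%) and 3 to 8 with single arrays left out (17.5% to 23.3%). With the mean of all probes Ncl turned to -0.64 in ERt2 minus ko and -0.74 in RUNX1-ERt2 minus wt, and Polr1e to 0.37 in ERt2 minus ko. The cause of these changes was not tested. The difference between slides was not computed from the series matrix, whose ko and wt columns fit the scanner file of another sample number. All members were well above background on all arrays, but their calls change with the background correction, as given above.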
